A study of Mus musculus with 20 samples.

Results

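Benzo[a]pyrene (B[a]P) was compared with its solvent DMSO in control-grown Hepa-1 cells at passage 25, in 4 of the 20 RNA-seq libraries of the series. Hepa-1 is a mouse hepatoma cell line. The 4 libraries were chosen by their labels alone: 2 given B[a]P and 2 given DMSO, in each case for 8 hours, and each pair of B[a]P and DMSO libraries joined by its replicate number. None of these cells had been grown with hexavalent chromium, Cr(VI). The medium was α-MEM with 5% serum and cells were passaged every 3 days. The B[a]P dose is labelled 5 mM and is given here as labelled. Titles of these samples read 27 although their passage is labelled 25. The study also held control-grown and Cr(VI)-grown cells at passage 20, Cr(VI)-grown cells at passage 25, and recovered cells (Cr(VI) for 20 passages, then none for 5), each with DMSO and with B[a]P in 2 libraries (Cr(VI) labelled 0.5 mM). Whether the 2 libraries of a group stem from separate cultures is not labelled, so the p-values reflect a spread between libraries that may be technical. In the B[a]P comparison that spread was pooled over the 12 libraries of passage 25. The difference shared by libraries of equal replicate number was taken out of it as a block.

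B[a]P is a combustion product that binds the aryl hydrocarbon receptor (AHR), a ligand-activated transcription factor. The bound receptor enters the nucleus, pairs with ARNT and acts at xenobiotic response elements with the core GCGTG, most famously at the cytochrome P450 genes Cyp1a1 and Cyp1a2 of the liver. The same P450 enzymes turn B[a]P into quinones, which engage the NRF2 antioxidant pathway, and into diol epoxides, which form bulky DNA adducts and engage p53.

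The 4 libraries held 34290046 (DMSO replicate 1), 21795837 (DMSO replicate 2), 37930720 (B[a]P replicate 1) and 32805393 (B[a]P replicate 2) counts. Replicates differed more than treatments did. DMSO replicate 2 differed from DMSO replicate 1 by over 2-fold in 43.7% of genes and B[a]P replicate 2 from B[a]P replicate 1 in 21.3%, while B[a]P differed from DMSO by over 2-fold in 10.6% of genes in the replicate 1 pair and 8.51% in the replicate 2 pair. The 100 most counted genes took 19.8% and 22.8% of counts in the replicate 1 libraries and 29.6% and 29.9% in the replicate 2 libraries. Levels are given in CPM, the read count relative to the TMM-scaled library size, in the order of replicate 1 and replicate 2. Hepatocyte markers were mixed: Alb was at 2330 to 5290 CPM and Afp at 149 to 258 CPM over the 4 libraries, while Apoc3 was at 0 in all 4, Apoa1 at no more than 0.024 CPM and Hnf4a at no more than 0.070 CPM. Of the defining markers of other liver cell types, Cdh5 (endothelium), C1qa (macrophages), Reln (stellate cells) and Epcam (cholangiocytes) were at 0 in all 4. Other genes of the same lists were present. Among stellate cell and fibroblast markers Dcn was at 509 to 611 CPM, Col1a1 at 215 to 488 CPM, Pdgfrb at 43.2 to 113 CPM and Acta2 at 12.6 to 51.8 CPM. The cholangiocyte keratin genes Krt7 and Krt19 were at 325 to 1004 CPM and 32.2 to 164 CPM, and the macrophage genes Csf1r and Cd14 at 25.3 to 38.6 CPM and 51.4 to 61.8 CPM.

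The promoters below belong to AHR target genes that rose and hold the core GCGTG within 250 bases before to 50 bases after their RefSeq start site (assembly GRCm38.p6). They are the 4 with the lowest p-values in the B[a]P comparison. They are shown so that matches of the core can be set beside the responses that follow. Whether these matches act as response elements was not tested. Capitals mark GCGTG or, where it lies on the other strand, CACGC.
Tnfaip2 (chr12:111442411-111442710, + strand): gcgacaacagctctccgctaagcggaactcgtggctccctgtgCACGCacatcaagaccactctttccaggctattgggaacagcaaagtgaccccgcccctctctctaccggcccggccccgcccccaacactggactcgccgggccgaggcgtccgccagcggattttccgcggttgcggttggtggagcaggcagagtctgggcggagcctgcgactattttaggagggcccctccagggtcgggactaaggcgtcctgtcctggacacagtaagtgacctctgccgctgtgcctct
Cyp1a1 (chr9:57697363-57697662, + strand): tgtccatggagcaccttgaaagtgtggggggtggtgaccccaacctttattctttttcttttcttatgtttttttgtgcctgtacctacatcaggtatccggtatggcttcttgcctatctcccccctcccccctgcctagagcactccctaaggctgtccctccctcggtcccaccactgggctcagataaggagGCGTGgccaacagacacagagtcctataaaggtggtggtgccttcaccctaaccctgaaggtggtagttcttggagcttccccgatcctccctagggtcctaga
Aox3 (chr1:58112886-58113185, + strand): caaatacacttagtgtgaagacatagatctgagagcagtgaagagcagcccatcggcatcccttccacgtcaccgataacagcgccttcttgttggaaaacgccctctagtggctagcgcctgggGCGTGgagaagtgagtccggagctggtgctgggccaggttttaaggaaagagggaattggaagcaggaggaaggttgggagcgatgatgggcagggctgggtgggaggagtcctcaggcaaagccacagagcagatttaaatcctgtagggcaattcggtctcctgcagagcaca
Selenbp1 (chr3:94932833-94933132, + strand): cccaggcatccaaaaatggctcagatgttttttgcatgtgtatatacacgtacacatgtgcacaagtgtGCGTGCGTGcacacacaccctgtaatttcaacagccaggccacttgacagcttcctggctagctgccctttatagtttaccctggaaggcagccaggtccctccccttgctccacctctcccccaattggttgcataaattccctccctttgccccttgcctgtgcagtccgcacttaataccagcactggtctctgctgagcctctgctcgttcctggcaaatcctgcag
The core begins 207 bases before the start site on the opposite strand in Tnfaip2. It begins 54 bases before the start site in Cyp1a1 and farther upstream in Aox3. Selenbp1 has a pair of overlapping matches, 181 and 177 bases before its start.

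The response of Cyp1a1, which encodes the P450 that oxidises aromatic hydrocarbons, was the largest. It stood at 37.3 and 28.0 CPM with DMSO and at 1245 and 1738 CPM with B[a]P. Both treated libraries were far above both controls, and the rise was 44.9-fold (log2 5.49 ± 0.45 SE, 2 against 2 libraries, adjusted p = 1.1e-04, edgeR quasi-likelihood test with the replicate number as a block, Benjamini-Hochberg adjustment). Cyp1a2, its neighbour on chromosome 9 (57676937 to 57683655), went from 3.81 and 3.44 CPM to 41.0 and 56.7 CPM, a 13.1-fold rise (log2 3.71 ± 0.31, adjusted p = 1.1e-04). Cyp1b1, the third family 1 enzyme, had 2.81 and 0.939 CPM with DMSO and 8.56 and 6.57 CPM with B[a]P, a rise of 5.01-fold (log2 2.33 ± 0.44, adjusted p = 0.0226). Cyp2s1, a P450 of family 2, went from 9.22 and 31.2 CPM to 92.6 and 192 CPM, and its DMSO replicates differed from each other by more than those of the other 3 P450 genes did on this scale.

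Of 20 listed AHR targets, 18 passed the filter on low counts (the other 2 did not), 13 rose, 0 fell and 5 did not pass the test. Over all 13692 genes tested, 255 passed (1.86%), 150 higher (1.1%) and 105 lower (0.767%). The median log2 change of the 18 was 2.79, against 0.07 over all genes tested, and in 17 of the 18 both B[a]P libraries were above both DMSO libraries, as in 12.1% of all genes. The 13 that rose had log2 changes from 2.33 to 5.49. Since AHR target genes are listed because such ligands raise them, this count describes the size of the response.

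Oxidising and reducing enzymes other than P450s made up much of the list. Aldh3a1, an aldehyde dehydrogenase (chromosome 11, 61208510 to 61218418), rose from 44.6 and 79.1 CPM to 723 and 1162 CPM (log2 3.96 ± 0.39, 15.6-fold, adjusted p = 4.59e-04). Nqo1, a quinone reductase that is a target of both AHR and NRF2, went from 50.5 and 45.7 CPM to 464 and 511 CPM (log2 3.34 ± 0.32, 10.1-fold, adjusted p = 3.83e-04). The xanthine dehydrogenase gene Xdh went from 41.3 and 54.3 CPM to 217 and 342 CPM, a 5.79-fold rise. The treated libraries stood clear of the controls in each of these 3 genes. The aldehyde oxidase genes Aox3 and Aox1 lie next to each other on chromosome 1 and differed in size: Aox3 went from 7.99 and 4.22 CPM to 35.3 and 31.3 CPM (log2 2.45 ± 0.27, adjusted p = 0.00127), while Aox1 had 36.5 and 22.6 CPM with DMSO and 54.9 and 50.9 CPM with B[a]P and did not pass (log2 0.92 ± 0.29, adjusted p = 0.142). The difference between those neighbours was not tested. Adh7, an alcohol dehydrogenase that oxidises retinol, rose 10.6-fold, from 12.4 and 5.997 CPM to 118.7 and 66.2 CPM.

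**Figure D1:**
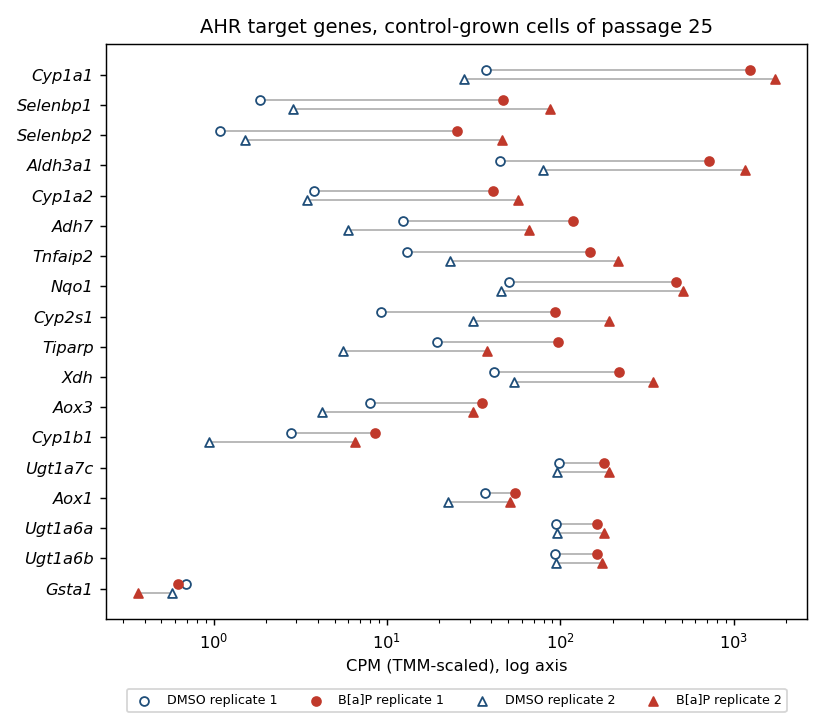
CPM (log axis) of the 18 tested AHR targets in each of the 4 libraries, with a line joining the DMSO (open) and B[a]P (filled) library of the same replicate number. In 17 genes both B[a]P libraries lie to the right of both DMSO libraries, and Gsta1 alone moves left.

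The remaining AHR targets were of other kinds. Tnfaip2, induced by tumour necrosis factor, had 13.0 and 23.0 CPM with DMSO and 149 and 216 CPM with B[a]P (chromosome 12, 111442450 to 111455018). Its rise was 10.4-fold (log2 3.38 ± 0.25), with the lowest adjusted p of all genes tested (1.06e-04). Tiparp, which encodes an ADP-ribosyltransferase that represses AHR, went from 19.5 and 5.58 CPM to 97.1 and 37.5 CPM. Replicate 2 was the lower library in both arms of Tiparp, and within each pair the rise was similar (log2 2.32 and 2.74). The selenium-binding protein genes Selenbp1 and Selenbp2 had 1.86 and 2.87 CPM and 1.09 and 1.51 CPM with DMSO, and 46.4 and 87.1 CPM and 25.3 and 46.0 CPM with B[a]P. They are close paralogs whose reads the counting may not separate, so their near-equal rises (log2 4.76 ± 0.59 and 4.69 ± 0.59) are uncertain as separate results. The glucuronosyltransferase genes Ugt1a6a, Ugt1a6b and Ugt1a7c share exons and had log2 values of 0.85, 0.85 and 0.94, none past the test. Gsta1, a glutathione transferase, stood at 0.697 and 0.574 CPM with DMSO and at 0.627 and 0.367 CPM with B[a]P (log2 -0.35 ± 0.73, adjusted p = 0.856).

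No listed gene of the receptor or its partners passed the test. Of 15 genes of the AHR complex and its coactivators, 0 rose and 0 fell (1.1% and 0.767% of all genes), so these counts are near those shares. An unadjusted p under 0.05 was seen in 1 of them (2227 of all 13692 genes), and the median was 0.04. Ahr was at 122.5 and 49.9 CPM with DMSO and 92.9 and 45.1 CPM with B[a]P, so its replicates stood further apart than its treatments (log2 -0.25 ± 0.35, adjusted p = 0.776). Without DMSO replicate 2 its log2 value was 0.06 and without B[a]P replicate 1 it was 0.13. Arnt, the dimer partner, was at log2 0.33 ± 0.22. The coactivator gene Ncoa2 was lowest of the list at -1.12 ± 0.36 (adjusted p = 0.14).

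The core GCGTG, on either strand, was common in promoters. It was present in 48.4% of the 13550 windows (300 bases each) that the RefSeq table holds for 10709 of the genes tested. Among genes that rose it was in 84 of 140 windows, and among genes that fell in 45 of 108 (41.7%). Of the 13 AHR targets that rose, 11 had a window and 8 of those held the core. Cyp1a2, Nqo1 and Cyp2s1 had none within these 300 bases. The longer TNGCGTG, which contains the core, was in 7.69% of all windows, 17 of the 140 of genes that rose and 13 of the 108 of genes that fell. The antioxidant response element core TGANNNNGC was in 42.8% of all windows, 44.3% of those of genes that rose and 37.0% of those of genes that fell. Its matches can overlap those of GCGTG.

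Across all genes the responses of the pairs had the same sign in 66.6% of 13692 genes, and their log2 values correlated with r = 0.49 across genes, which are not independent replicates. Over 2-fold changes agreed in direction in 224 genes upward and 195 downward, and went opposite ways in 34. All 255 genes past the threshold had the same sign in both pairs. The groups did not overlap in 140 of the 150 that rose (12.1% of all genes were so arranged upward) and in 86 of the 105 that fell (9.7% downward). Changes of over 4-fold were seen in 42 of the rises and 23 of the falls. The replicate block carried these calls: without it 0 genes passed in edgeR, with 306 at an unadjusted p under 0.05, against 2227 with the block. With the block DESeq2 called 708 genes (406 higher, 302 lower), 253 of the 255 among them. The excess of rises over falls depended on the setting: upper quartile scaling gave 105 higher and 107 lower, and the 4 compared libraries alone, with the block, 745 higher and 838 lower. Leaving out DMSO replicate 1, DMSO replicate 2, B[a]P replicate 1 or B[a]P replicate 2 left 33, 27, 109 and 89 genes.

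**Figure D2:**
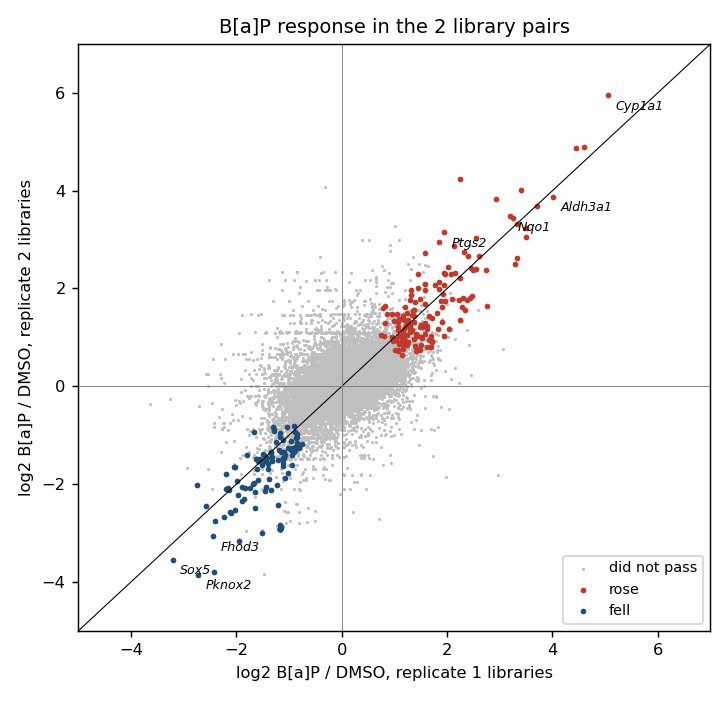
Log2 change of B[a]P against DMSO in the replicate 1 pair (x axis) and the replicate 2 pair (y axis) for the 13692 genes tested, with genes past the threshold in colour and the line of equality drawn. The coloured genes lie at the upper right and lower left, as all 255 have the same sign in both pairs.

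A set of 17 genes passed with each of the 4 libraries left out in turn. Each of those fits leaves 1 arm with a single library, which is assumed to vary, and to differ by replicate number, like the other groups of passage 25. The 10 that rose included Cyp1a1, Cyp1a2, Cyp2s1, Aldh3a1, Nqo1, Aox3, Tnfaip2, the bradykinin receptor gene Bdkrb2 and the unnamed gene 4931440P22Rik, which overlaps the start of Tiparp on chromosome 3 and may share its reads. The 7 that fell were Pknox2, Fhod3, Prkce, Plcb1, Arhgap6, the junction scaffold gene Magi1 and the lymphatic growth factor gene Vegfc. Bdkrb2 went from 3.67 and 5.58 CPM to 15.9 and 19.4 CPM (log2 1.96 ± 0.23), and Vegfc from 10.8 and 7.82 CPM to 2.68 and 1.98 CPM (log2 -1.99 ± 0.25).

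Outside the AHR list, the largest rises were of varied function. Bmf, a BH3-only activator of cell death, went from 3.18 and 1.98 CPM to 24.7 and 29.0 CPM (log2 3.37 ± 0.41, adjusted p = 0.00137). It was the only member of the BCL2 family to pass of 10 tested, and 0 fell (1.1% of all genes rose and 0.767% fell). The anti-apoptotic genes Bcl2 (log2 -1.05 ± 0.33), Bcl2l1 (-0.48 ± 0.24) and Mcl1 (-0.46 ± 0.21) did not pass. The cyclin gene Ccno went from 0.557 and 0.939 CPM to 6.97 and 8.26 CPM. Ido2, an enzyme of tryptophan breakdown, went from 0.116 and 0.104 CPM to 0.940 and 0.808 CPM. The size of its rise rests on few reads, 5 and 2 with DMSO and 39 and 22 with B[a]P. Mpp2, a membrane scaffold gene, went from 5.11 and 16.8 CPM to 50.5 and 95.9 CPM (log2 2.93 ± 0.35). Mrgprg, an orphan receptor gene, had 1 and 3 reads with DMSO and 44 and 75 reads with B[a]P, so the size of its rise rests on few reads (log2 4.84 ± 0.95, adjusted p = 0.0263).

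NRF2 induces genes of glutathione synthesis, quinone reduction and NADPH supply. Of 26 genes in that list, 5 rose and 0 fell (1.1% and 0.767% of all genes), the median was 0.80, and 22 were positive in both pairs against 38.1% of all genes. Hmox1, which encodes heme oxygenase 1, was at 18.4 and 26.7 CPM with DMSO and 112 and 169 CPM with B[a]P, a 6.22-fold rise (log2 2.64 ± 0.49, adjusted p = 0.0226). Srxn1, which repairs oxidised peroxiredoxins, went from 31.5 and 52.3 CPM to 117.5 and 160 CPM (log2 1.76 ± 0.26, adjusted p = 0.00469). The catalytic subunit of glutathione synthesis, Gclc, went from 62.8 and 33.4 CPM to 171 and 136 CPM (log2 1.77 ± 0.31), while its modifier subunit Gclm, at 104 and 87.3 CPM and then 250 and 240 CPM, did not pass (log2 1.37 ± 0.35, adjusted p = 0.0719). Osgin1 (log2 2.00 ± 0.39) and the pentose phosphate enzyme gene Pgd (1.62 ± 0.35) were the other members that rose. The factor itself, Nfe2l2, was at log2 0.12 ± 0.26, and the peroxiredoxin gene Prdx1 at -0.11 ± 0.29.

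Conjugation and export genes had 1 rise in 20 tested and 0 falls (1.1% and 0.767% of all genes), with a median of 0.65. The member was Gsta4, a glutathione transferase for lipid aldehydes, at 22.6 and 55.9 CPM with DMSO and 60.8 and 114 CPM with B[a]P (log2 1.25 ± 0.26, adjusted p = 0.0332). Its relatives Gstm1, Gstm2 and Gstm3 lay between 1.06 and 1.08 and Gstp1 was at 1.56 ± 0.42, none past the test. Members of this family share sequence, so their counts are uncertain as separate values.

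Among 32 p53 targets, 6 rose and 0 fell (1.1% and 0.767% of all genes) and 26 did not pass. The median was 0.88, and 28 were positive in both pairs and 1 negative, against 38.1% and 28.5% of all genes. Cdkn1a, the cell cycle inhibitor p21, was at 160 and 199 CPM with DMSO and 652 and 1090 CPM with B[a]P (log2 2.22 ± 0.39, 4.66-fold, adjusted p = 0.0156). Btg2, an antiproliferative gene, went from 8.13 and 7.67 CPM to 36.3 and 38.4 CPM (log2 2.25 ± 0.30, adjusted p = 0.00198), with little spread between replicates. The polo-like kinase genes Plk3 (2.83-fold) and Plk2 (2.18-fold), the death receptor gene Tnfrsf10b (2.17-fold) and the stress gene Sesn2 (4.49-fold, adjusted p = 0.0487) rose as well. Mdm2, which marks p53 for destruction, had 187 and 31.0 CPM with DMSO and 243 and 77.2 CPM with B[a]P. Its replicates were further apart than its treatments, and it did not pass (log2 0.92 ± 0.35, adjusted p = 0.215). The pro-apoptotic genes Bbc3 (1.17 ± 0.34) and Bax (0.39 ± 0.31) did not pass either.

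**Figure D3:**
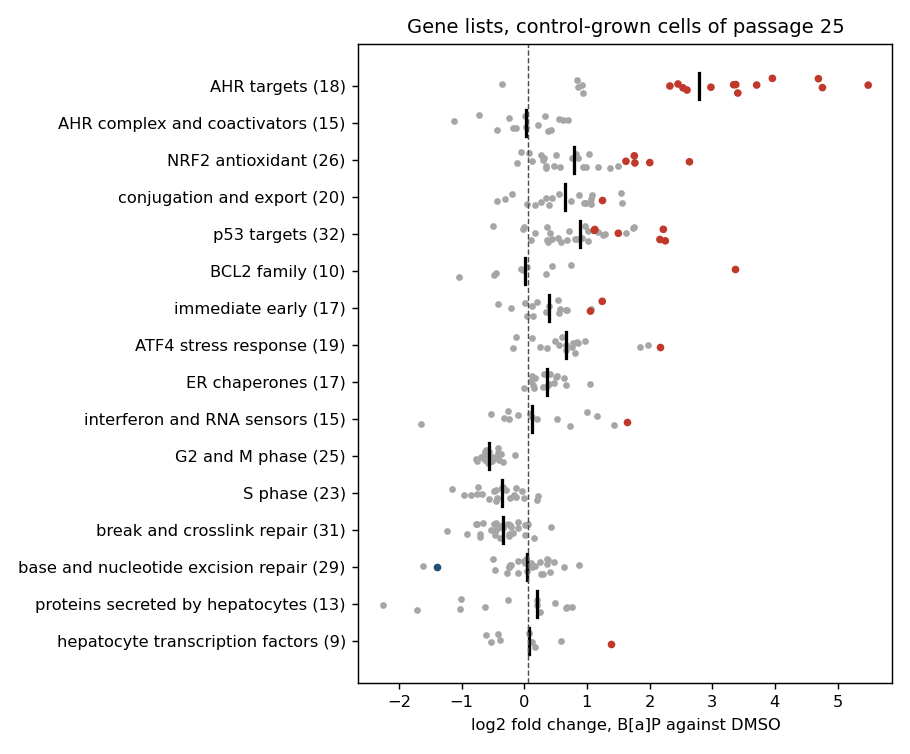
Log2 change of every tested member (points) of 16 gene lists, with the number tested in parentheses, the list's median as a black bar and the median of all genes tested (0.07) as a dashed line. Red points rose, blue fell and grey did not pass, and 13 of 18 AHR targets are red while all 25 G2 and M phase genes are grey and left of 0.

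None of the listed genes of G2 and M phase or of S phase passed, where 0.767% of all genes fell and 1.1% rose. All 25 genes of G2 and M phase were negative in both pairs, against 28.5% of all genes, with a median of -0.55 and a range of -0.77 to -0.14, and 0 passed. The cyclin gene Ccna2 was at 136 and 71.8 CPM with DMSO and 82.3 and 41.3 CPM with B[a]P (log2 -0.76 ± 0.22, adjusted p = 0.101), and the spindle gene Prc1 at 123.1 and 81.9 CPM and then 77.3 and 45.0 CPM (log2 -0.77 ± 0.23). In both genes each pair went down, while DMSO replicate 2 lay below B[a]P replicate 1 in Ccna2. The 23 S phase genes had a median of -0.36, with 17 negative in both pairs and 1 positive, a range of -1.15 to 0.22, and 0 passed. Outside these lists Cks2 (log2 -0.94 ± 0.19), Fbxo5, Cenpi and Nasp, which also act in the cell cycle and were chosen after their values were seen, fell. Ccne1, which drives entry into S phase, was at 48.4 and 57.9 CPM with DMSO and 27.9 and 25.5 CPM with B[a]P (log2 -0.96 ± 0.28, adjusted p = 0.107).

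Of the DNA repair genes listed, 1 fell and 0 rose. Over all genes 0.767% fell and 1.1% rose, so these counts are near those shares. Ung, which removes uracil from DNA, went from 17.6 and 17.8 CPM to 7.04 and 6.46 CPM, with close replicates in both arms (log2 -1.39 ± 0.23, adjusted p = 0.0119). It was the only one of 29 base and nucleotide excision repair genes to pass, and the median of the list was 0.04. Ercc5, the nuclease that cuts beside bulky adducts, had 32.8 and 15.7 CPM with DMSO and 49.0 and 33.9 CPM with B[a]P (log2 0.88 ± 0.26, adjusted p = 0.112). Of 31 break and crosslink repair genes 0 passed, the median was -0.34, and 22 were negative in both pairs, against 28.5% of all genes. Xrcc4, of end joining, was lowest at log2 -1.23 ± 0.32 (adjusted p = 0.0772). The 10 translesion polymerase genes had a median of -0.23 and 0 passed.

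Stress and signalling lists had few members past the test, where 1.1% of all genes rose and 0.767% fell. Of 17 immediate early genes the AP-1 genes Jun (14.02 and 24.7 CPM to 31.8 and 47.5 CPM, log2 1.06 ± 0.23) and Fosl1 (log2 1.25 ± 0.27) rose, and 0 fell. Of 19 ATF4 targets only Sesn2, also listed for p53, rose, with a list median of 0.67, while Trib3 (1.98 ± 0.65) and Chac1 (1.85 ± 0.58) did not pass. The RNA sensor gene Ddx58 went from 29.7 and 30.6 CPM to 89.5 and 98.8 CPM (log2 1.64 ± 0.25, adjusted p = 0.00541) and was the only one of 15 interferon and RNA sensor genes to rise. The hypoxia list had 1 rise in 15, Ndrg1 (log2 1.86 ± 0.42), and Vegfa did not pass (1.60 ± 0.57). Nr1h4, the bile acid receptor FXR, rose among 9 tested hepatocyte transcription factors, from 1.51 and 3.39 CPM to 5.01 and 6.98 CPM (log2 1.39 ± 0.32, adjusted p = 0.0477). With 0 members past the test in either direction stood the lists of metal response (8 tested), ER chaperones (17), heat shock (11), sterol and fatty acid synthesis (20), PPARA and fat oxidation (10), NF-kB and cytokines (14), the circadian clock (12), chromatin modifiers (16), very long common fragile site genes (6), secreted hepatocyte proteins (13), replication histones (49), nuclear long noncoding RNAs (6) and the respiratory chain (18). Mt1, the metallothionein that marks metal exposure, was at log2 0.53 ± 0.31. Neat1, a nuclear long noncoding RNA, had 191 and 11.4 CPM with DMSO and 24.9 and 3.53 CPM with B[a]P (log2 -2.24 ± 0.62, adjusted p = 0.0934), and its DMSO replicates stood further apart than its pairs did.

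Krtap1-5, Pknox2 and Sox5 had the largest falls. In bulk RNA, less RNA per cell and fewer cells of a kind cannot be told apart. Pknox2, a homeodomain factor (chromosome 9, 36890979 to 37147342), went from 1.95 and 8.29 CPM to 0.241 and 0.514 CPM (log2 -3.57 ± 0.45, adjusted p = 0.00137). Sox5, an SRY-related factor (chromosome 6, 143828425 to 144782287), went from 5.85 and 4.54 CPM to 0.579 and 0.331 CPM (log2 -3.57 ± 0.51, adjusted p = 0.00405). In both genes the highest B[a]P library lay well below the lowest DMSO library. Krtap1-5, a keratin-associated protein gene, had the lowest value of all (log2 -3.68 ± 0.52), at 0.789 and 2.35 CPM with DMSO and 0.0964 and 0.110 CPM with B[a]P. The size of its fall rests on few reads, 34 and 45 with DMSO and 4 and 3 with B[a]P.

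Among the other 12 of the 15 largest falls, Prkce, a protein kinase C, went from 18.2 and 13.1 CPM to 3.81 and 2.02 CPM (log2 -2.51 ± 0.32, adjusted p = 0.00137) and was the only one of 7 protein kinase C genes to pass. Prkca, for comparison, was at log2 -0.49 ± 0.26. Fhod3, a formin that assembles actin filaments, went from 5.53 and 6.94 CPM to 0.964 and 0.771 CPM (log2 -2.82 ± 0.33). Of 12 formin genes Diaph2 fell too (29.0 and 10.6 CPM to 9.30 and 3.75 CPM, log2 -1.57 ± 0.35), and Fmnl2 did not pass (-1.04 ± 0.27). Over all genes tested 0.767% fell. Plcb1, a phospholipase C, went from 24.8 and 9.28 CPM to 5.62 and 1.51 CPM, and Arhgap6, a GTPase-activating protein gene, from 16.6 and 9.02 CPM to 4.05 and 1.51 CPM. Angpt1, a ligand of the endothelial receptor Tek, went from 42.3 and 8.76 CPM to 6.22 and 2.13 CPM (log2 -2.44 ± 0.34), while Tek itself was at no more than 0.024 CPM. The others among the 15 largest falls were Nckap5, Cdkal1, Arl15, Bmper, Psd3, D630010B17Rik and Snord47, with log2 values from -3.01 to -2.23. Snord47 lies within the host gene Gas5 and had overlapping groups, so its reads are uncertain, and D630010B17Rik rests on 16 and 11 reads with DMSO and 2 and 2 with B[a]P.

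**Figure D4:**
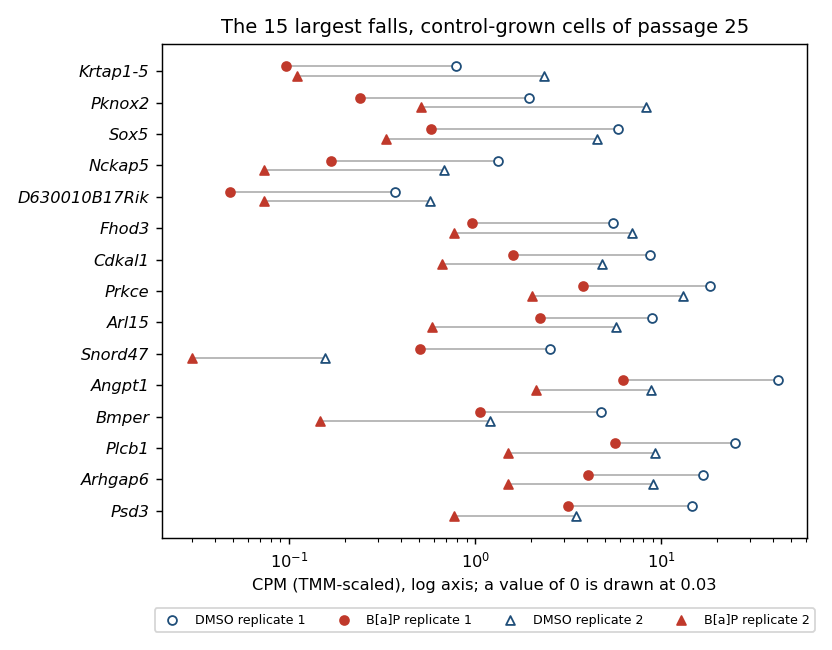
CPM (log axis, a value of 0 drawn at 0.03) of the 15 genes with the largest falls in each of the 4 libraries, joined by replicate number. In each gene except Snord47 both B[a]P libraries (filled) lie to the left of both DMSO libraries (open).

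Genes that fell were long. Their genomic span had a median of 241 kb, while that of the rises was 16.4 kb and that of the whole set tested was 20.9 kb, and 75 of the 105 (71.4%) spanned over 100 kb, against 9 of the 150 that rose and 11.1% of all genes. Of the 15 largest falls 12 were over 100 kb, and of the 15 largest rises 0. In the class of over 300 kb, 38 of 258 genes fell (14.7%), 1 rose, and 86.0% had a negative log2 change. The median of that class was -0.65, with -0.64 in the replicate 1 pair and -0.63 in the replicate 2 pair. Genes of 100 to 300 kb had a median of -0.24 and genes of 10 to 30 kb one of 0.14. Genes that fell also had lower levels, with a median of 7.63 CPM against 39.1 CPM for genes that rose. Among genes of over 300 kb with a mean of at least 5 CPM (110 genes) the median was -0.62. Long genes also differed between the control replicates: DMSO replicate 2 minus replicate 1 had a median log2 of -0.39 over 300 kb, -0.50 at 100 to 300 kb and 0.02 at 10 to 30 kb. The part of that library difference in the B[a]P values was not tested.

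**Figure D5:**
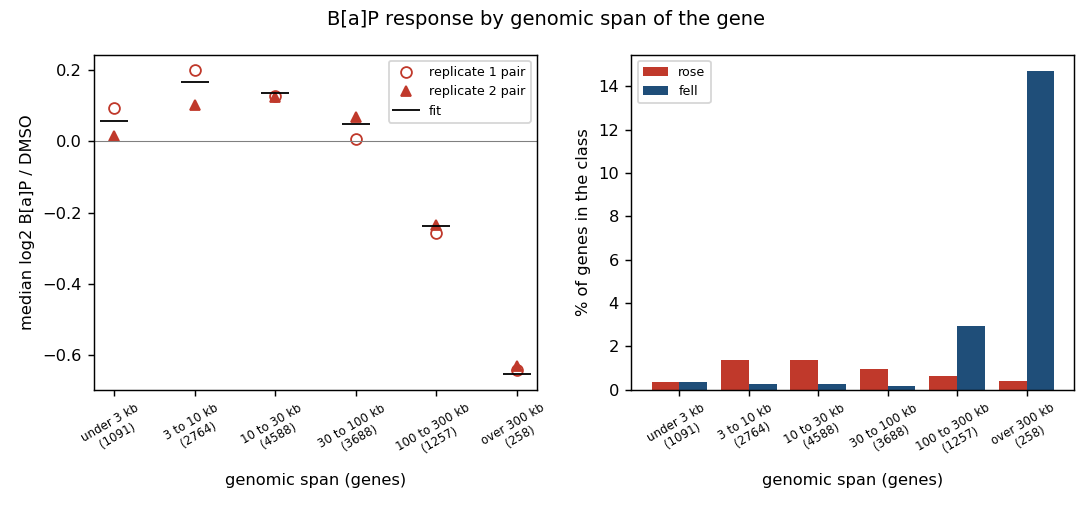
Left, the median log2 change of B[a]P against DMSO by genomic span, with the number of genes in parentheses, for each pair and for the fitted values. Right, the percentage of each class that rose or fell. The median goes from 0.14 at 10 to 30 kb to -0.65 over 300 kb, where 14.7% of genes fell.

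A family of X-linked predicted genes was also among the falls. Gm10058 and 6 others had the same 478 and 72 reads with DMSO and 204 and 12 reads with B[a]P, and Gm10487 and Gm4836 had 358, 54, 153 and 9. These 9 of the 105 falls share their reads and do not count as 9 separate results. Gm10488 fell too, with pair values (log2 -1.17 and -2.85) near those of Gm10487 (-1.16 and -2.87), and may share these reads as well.

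The response of control-grown cells at passage 20 was set beside these values, in libraries that share none with passage 25. Sample names begin with Pr at passage 20 and with PJ at passage 25. A difference between passages therefore cannot be told apart from one between library sets, here and in the next paragraph. In the fit of all 20 libraries 0 of 14343 genes (0.0%) passed for the difference between passages in edgeR, with 1334 at an unadjusted p under 0.05, and DESeq2 called 142. At passage 20 the 150 rises of passage 25 had a median log2 value of 1.25, 144 of them positive, and the 105 falls one of -2.08, 95 of them negative. Over all genes the sign was the same at both passages in 9081 of 13684. Both sets were chosen by their values at passage 25. Of the 15 largest falls, 11 had a lower log2 value at passage 20 (Sox5 -5.28 against -3.62, Fhod3 -3.74 against -2.88) and 4 a higher one (Krtap1-5 -2.80 against -3.73, Bmper -1.53 against -2.44, D630010B17Rik -2.11 against -2.95, Snord47 -0.74 against -2.54), and none of these differences passed. The class of genes over 300 kb had a median of -1.55 at passage 20 and -0.71 at passage 25 in that fit, a difference that was not tested.

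Among the 142 genes that DESeq2 called for the difference between passages were Cyp1a2, Gsta1, Nr1h4, Srxn1 and Plk3. None of them passed for this difference in the edgeR fit of all 20 libraries. Srxn1 and Plk3 had log2 responses of 1.70 and 1.45 at passage 25 and 2.85 and 2.61 at passage 20 (DESeq2 adjusted p = 0.0290 and 0.0496). CPM values in this paragraph were scaled over all 20 libraries and so differ slightly from those above. Cyp1a2 had 17.8 and 17.6 CPM with DMSO and 54.0 and 51.2 CPM with B[a]P at passage 20, and 4.17 and 3.77 CPM with DMSO and 42.3 and 61.1 CPM with B[a]P at passage 25. Its levels with B[a]P thus overlapped between passages, while its DMSO levels did not. The log2 response was 1.57 ± 0.25 at passage 20 and 3.65 ± 0.28 at passage 25, a difference of 2.08 ± 0.36 (adjusted p = 0.119 in edgeR, 1.79e-04 in DESeq2). Gsta1 went from 0.237 and 0.169 CPM to 4.91 and 5.11 CPM at passage 20, where at passage 25 it had 0.763 and 0.629 CPM with DMSO and 0.646 and 0.396 CPM with B[a]P (difference -5.03 ± 0.99, adjusted p = 0.119 in edgeR, 3.83e-04 in DESeq2). Nr1h4 had 7.37 and 6.76 CPM and then 4.64 and 4.59 CPM at passage 20, and 1.65 and 3.72 CPM and then 5.17 and 7.52 CPM at passage 25 (difference 1.95 ± 0.37, adjusted p = 0.119 in edgeR, 2.61e-04 in DESeq2). For Cyp1a1 the responses were near each other, at log2 5.03 and 5.43.

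The response was also compared between growth histories at passage 25. Against Cr(VI)-grown cells 0 of 13692 genes (0.0%) passed for a different B[a]P response in edgeR, with 2142 at an unadjusted p under 0.05. DESeq2 called 484, of which 1 had a higher and 483 a lower log2 response in Cr(VI)-grown than in control-grown cells. The Cr(VI)-grown replicate 1 libraries were unlike each other in make-up. Their 100 most counted genes took 26.0% of counts with DMSO and 15.7% with B[a]P, against 34.3% and 31.2% in replicate 2. The part of that library difference in the 483 was not tested. Against recovered cells 0 genes passed for a different B[a]P response in edgeR and in DESeq2, and the unadjusted p was under 0.05 for 57 and 38. A difference that did not pass may still be present, so these counts do not show equal responses. The log2 response of Cyp1a1 was 5.49 in control-grown, 5.54 in Cr(VI)-grown and 5.75 in recovered cells, and that of Tnfaip2 was 3.38, 2.76 and 2.80. The 150 genes that rose had medians of 1.42 in control-grown, 1.13 in Cr(VI)-grown and 1.17 in recovered cells. The 105 that fell had medians of -1.57, -1.40 and -1.34. Both sets were chosen by their values in control-grown cells, which alone can make the other medians smaller, so these medians do not compare the histories.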

How the data were processed

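RNA-seq libraries of Hepa-1 cells were deposited as raw counts per Entrez gene ID, 1 column per library. Per the submitters' processing notes, bcl2fastq, CASAVA 1.8, TopHat, DESeq and the mm10 build were used, in roles not stated; which counter, annotation and strandedness applied is not given in the sources used here. Of 23373 IDs, 23275 were matched to RefSeq symbols.

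Counts were tested in edgeR 4.0.16 (R 4.3.3): filterByExpr, TMM, and quasi-likelihood models of the 12 libraries of passage 25 with 1 mean per group and the replicate number as a block (5 residual degrees of freedom). Contrasts were two-sided, with Benjamini-Hochberg adjustment over 13692 genes at 0.05. The difference between passages used all 20 libraries with a block within each passage. The block was kept at passage 20 although replicate numbers pair libraries less clearly there. Replicate 2 minus replicate 1 differences correlated at 0.83 to 0.93 between all 15 pairs of groups at passage 25 and at 0.00 to 0.59 between the 6 at passage 20, so replicate numbers were taken to pair libraries at passage 25. Named genes are the 15 largest changes past the threshold in each direction with the same sign in both pairs, all AHR targets, and up to 5 members of every other list by lowest p; further members and genes were named after their values were seen. Members and lists were chosen with earlier results of these data known. Some named items are not reported here. Lists were described by counts and medians, without a set test. Alternatives were DESeq2 1.42.0, other scalings, filters, designs and leaving out libraries. The fit of the 12 libraries was tested on simulated counts with 2-fold changes in 100 genes and 4-fold changes in 100. It recovered 44% and 98% of them, with 6 false calls. The replicate difference was simulated as the same in every group, so the simulation could not check the block.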

Additional observations from a re-analysis of the deposited data

How the results depend on the processing

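With the replicate block, 255 genes passed for B[a]P. Without the replicate block 0 passed. From all 20 libraries 388 passed with the block and 7 without it, from the 4 compared libraries alone 1583 with it and 0 without it, and with DESeq2 708. Other scalings, filters and a fit of the 8 control-grown and recovered libraries, added after seeing the data, gave 186 to 367. With a library left out 27 to 109 passed. All 255 calls, where tested, kept their sign in each of these alternatives. For the difference between passages DESeq2 called 142 genes, no count filter gave 21, and leaving out a library gave 0 to 7, the 7 without control B[a]P replicate 1 of passage 25. For the difference from Cr(VI)-grown cells DESeq2 called 484 and leaving out a library gave 0 to 582. Without the replicate block edgeR again called 0 genes for the differences from passage 20, Cr(VI)-grown and recovered cells. Genes at an unadjusted p under 0.05 were then 228, 18 and 8, against 1334, 2142 and 57 with it. The other settings of these differences were run with the block only. The median of genes over 300 kb was -0.65, -0.62 at a mean of 5 CPM or more, and -0.64 to -0.63 with a replicate left out. Ahr turned from -0.25 to 0.06 and 0.13 with DMSO replicate 2 or B[a]P replicate 1 left out, and it was -0.73 without B[a]P replicate 2. The cause of these shifts was not tested. With upper quartile scaling the medians of 8 lists near 0 turned negative. With 2 libraries a group, a fall or rise that did not pass may still be present.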

Other observations

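The genes of this paragraph were chosen after their values were seen, and are given as values. Prostaglandin synthesis was represented by Ptgs2, the inducible cyclooxygenase, at 51.8 and 4.85 CPM with DMSO and 199 and 43.4 CPM with B[a]P (log2 2.67 ± 0.51, adjusted p = 0.0246), and by Ptges, prostaglandin E synthase, at 2.62 and 7.72 CPM and then 14.5 and 27.3 CPM (log2 2.15 ± 0.27, adjusted p = 0.00138). Within each pair both rose, while the replicates of Ptgs2 stood far apart and its groups overlapped. Heme synthesis genes that rose were Alas1, its first enzyme (log2 1.16 ± 0.26), and Cpox (1.25 ± 0.21, 52.7 and 40.2 CPM to 130 and 92.0 CPM). The gasdermin genes Gsdmd (44.6 and 75.8 CPM to 141 and 206 CPM, log2 1.57 ± 0.31) and Gsdme (1.44 ± 0.33), whose products form membrane pores, both rose. The cytokine signalling inhibitor gene Socs1 (1.74 ± 0.40) and the antigen peptide transporter gene Tap1 (1.38 ± 0.27) rose as well. Esr1, the estrogen receptor gene, fell from 4.04 and 2.71 CPM to 1.37 and 0.845 CPM (log2 -1.61 ± 0.34, adjusted p = 0.0332).

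Cell division genes outside the lists passed downward by these edgeR calls: Cks2, a partner of cyclin-dependent kinases (93.8 and 56.2 CPM to 45.7 and 31.7 CPM, log2 -0.94 ± 0.19, adjusted p = 0.0312), the mitotic inhibitor gene Fbxo5 (-1.10 ± 0.25), the centromere gene Cenpi (-0.96 ± 0.22) and the histone chaperone gene Nasp (-0.86 ± 0.19). In Fbxo5 DMSO replicate 2, at 9.33 CPM, lay below B[a]P replicate 1, at 15.6 CPM.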
